A study of Rattus norvegicus with 12 samples.

Results

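The effect of cyclic shortening on messenger RNA was read in rat heart muscle held at low mean stretch. It was measured as 3 right ventricular papillary muscles cultured with high shortening against 3 cultured with low shortening, which are 6 of the 12 muscles of the study, chosen by their labels alone. All 6 were set to a mean stretch of 4% of slack length; the shortening target was 16% in the low stretch high shortening group and 4% in the low stretch low shortening group. The other 6 muscles, at 16% mean stretch, formed a high stretch high shortening group (16% shortening) and a high stretch low shortening group (4% shortening) of 3 each. Every muscle came from a different adult male rat of the hybrid strain LBNF1, carried no named allele or drug, and was paced at 1 Hz for 12 h in oxygenated medium before it was frozen. A cultured muscle carries no blood flow and no nerve input, so it stands for isolated heart muscle, and all cell types of the papillary muscle enter its RNA. The labelled ages were 75 in all 3 low-shortening animals and 75 to 84 in the high-shortening animals, and the labelled weights were 305 to 318 against 267 to 296, with no unit stated for either.

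Papillary muscles are small columns of ventricular muscle that tether the atrioventricular valves and, like the ventricular wall, shorten with every beat. Mean stretch sets the passive tension on sarcomeres and matrix attachments, and shortening is one of the factors in the work and ATP use of each beat. Heart muscle is known to answer load with fetal genes such as natriuretic peptides, with immediate early genes and with changes in its mitochondrial and contractile programmes. Shortening at a fixed low stretch is meant to change the moving part of the load while its mean is held, as far as the design text states.

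RNA was read on Affymetrix 3' expression arrays, on which a probe set is a group of short probes to a single stretch of a transcript and its level is a log2 intensity normalized by RMA. In all, 31042 probe sets were not controls. Of these, 20826 carried 1 gene symbol, which gave 14217 genes, and 4525 of those genes had several probe sets. Levels below are such log2 levels, and differences are high minus low shortening at low stretch. A difference was called when its limma adjusted p (Benjamini-Hochberg over all 31042 probe sets, moderated test across 12 arrays) was under 0.05. Every array stands for its own animal, and 3 arrays a group set the precision: the 95% interval of a difference reached 0.30 log2 (1.23-fold) to either side in the median probe set.

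The array controls of the 2 low-stretch groups differed, and this touches every result below. The 3' signal of Gapdh, a glycolytic enzyme, exceeded its 5' signal by 0.39 to 0.78 log2 in the low-shortening muscles and by 2.66 to 2.88 in the high-shortening muscles. For Actb, cytoplasmic actin, the excess was 1.86 to 2.59 against 3.52 to 3.71. Neither pair of ranges overlapped. Along Gapdh, the difference between the groups was -0.29 at the 3' probe set, -1.19 in the middle and -2.56 at the 5' probe set. Along Actb it was -1.77, -3.41 and -3.21, so that signal was lower with high shortening at every position and least so at the 3' end.

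The same difference was present in RNAs that muscle does not make. The arrays carry probe sets for dap, lys, phe and thr, transcripts of a bacterium that the platform's standard protocol mixes into total RNA before labelling. For phe the 3' excess was 0.19 to 0.33 log2 in the low-shortening group and 4.25 to 4.80 in the high-shortening group; for dap it averaged 2.44 against 6.76, for lys it was 1.09 to 1.35 against 4.11 to 5.24, and for thr 3.16 to 3.71 against 4.58 to 5.57. The mean excess of dap, lys and phe was 1.31 ± 0.08 (SD, n = 3) against 5.31 ± 0.33 (SD, n = 3). Their 3' signals averaged close to each other (12.19 for dap in both groups, with a range of 11.12 to 13.43 with high shortening), whereas the 5' signals of dap, lys and phe were 4.32, 3.48 and 3.79 log2 lower with high shortening. The hybridisation controls bioB, bioC, bioD and cre, which enter after labelling, differed between the groups by at most 0.19 in their 3' excess. Each excess was tested by an exact two-sided permutation test of 3 against 3 arrays, which cannot go below p = 0.1; all gave p = 0.1, the small differences of the hybridisation controls included. All 3 low-shortening arrays lay on one side, so the length of labelled RNA and the mechanical condition cannot be told apart in this comparison, and no fit without the libraries that stand apart is possible.

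**Figure D1:**
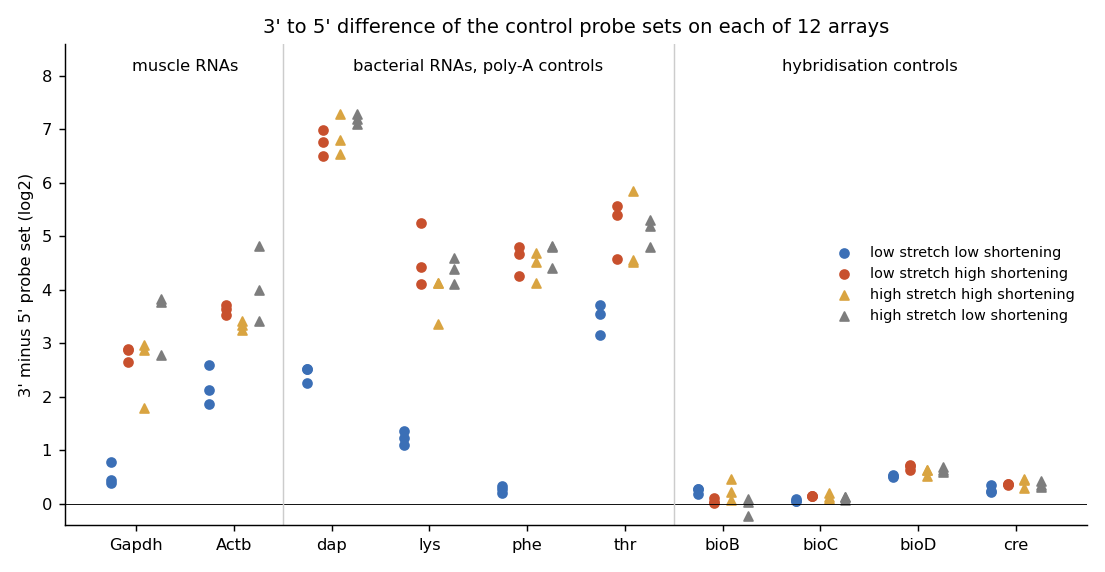
Excess of the 3' over the 5' control probe set (log2, vertical axis) for 2 muscle RNAs, 4 bacterial RNAs mixed in before labelling and 4 hybridisation controls, with 1 point per array and 3 arrays per group. The 3 arrays of low stretch with low shortening lie below all 9 other arrays for every muscle RNA and every bacterial RNA, and all groups lie close together for the hybridisation controls.

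Against that background, a large share of the array differed between high and low shortening at low stretch. Of 31042 probe sets, 9887 passed (31.9%), with 4882 higher (15.7%) and 5005 lower (16.1%) with high shortening. Among them 3228 differed by at least 2-fold, 1284 higher and 1944 lower. Read at the probe set of highest mean of each gene, 2547 of 14217 genes were higher (17.9%) and 2604 lower (18.3%). Among the 10316 genes whose probe set reached the 40th percentile of all levels (4.91 log2), those shares were 22.5% and 23.9%. The 2 groups did not overlap at 14563 probe sets (46.9%). Arrays of 1 group resembled each other more than those of the other: across probe sets, r was 0.991 to 0.993 within the low-shortening group, 0.989 to 0.994 within the high-shortening group and 0.955 to 0.962 between them. With the index of Gapdh and Actb (the mean of their 3' excesses) as a covariate, 3239 probe sets passed, and with labelled weight as a covariate 4659. With the bacterial RNA excess as a covariate, 0 passed in limma against 2681 at an unadjusted p under 0.05, and the median standard error grew from 0.138 to 0.947 log2. It was 0.311 with the index and 0.234 with weight. The low stretch low shortening arrays had an index of 1.13 to 1.69, and all other arrays 2.56 to 4.33. Labelled weights were 305 to 318 against 267 to 297 in the same split. Each group had its own mean, so the slope of a covariate came from differences within groups. A call kept under the index or weight therefore does not tell that covariate apart from shortening.

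Genes read by several probe sets were examined for agreement. A gene was counted as agreeing when at least 2 of its probe sets passed in 1 direction and none had the opposite sign. Of the 4525 genes with several probe sets, 148 agreed on a higher level (3.27%) and 275 on a lower level (6.08%), while 468 (10.3%) had probe sets called in both directions. Of 2626 genes with at least 2 probe sets past the 40th percentile, the probe set of highest mean was called higher in 759 and lower in 552, with a median difference of 0.12 log2. The second probe set of the same genes was called higher in 410 and lower in 835, with a median of -0.10. In 406 genes both were called the same way, in 256 in opposite ways, in 1232 a single one was called and in 732 none was. Positions of the probe sets along their transcripts were not used here.

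**Figure D2:**
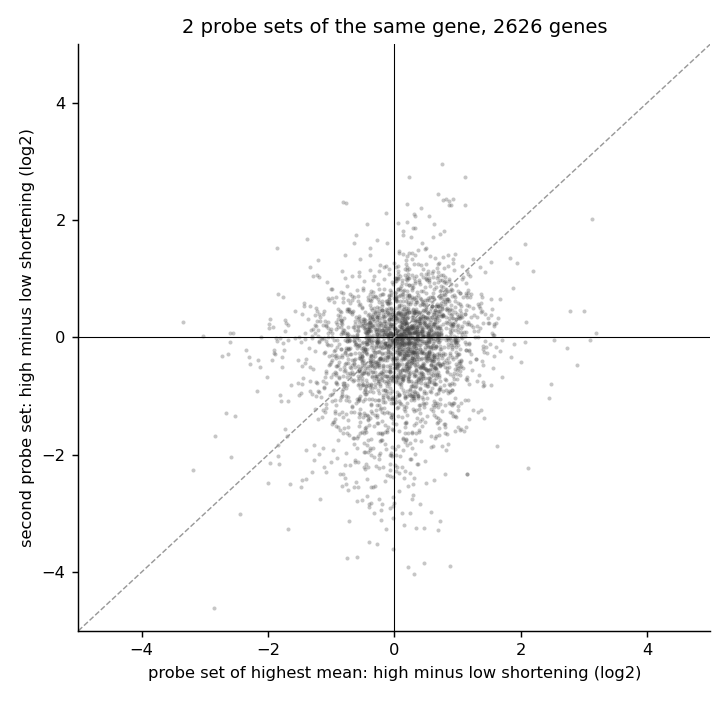
Difference between high and low shortening at low stretch (log2) in the probe set of highest mean (horizontal axis) and in the second probe set (vertical axis) of 2626 genes, 1 point per gene, with equality as a dashed line. The cloud is broad around the dashed line and reaches further down than up: 835 second probe sets were called lower and 410 higher.

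Ythdf2 and Wtap were among the 12 agreeing genes with the largest rises. Ythdf2, a protein that binds N6-methyladenosine in messenger RNA and speeds its decay, read 9.09, 8.75 and 9.04 log2 in the low-shortening muscles and 11.04, 11.19 and 10.84 in the high-shortening muscles at its probe set of highest mean. Every high-shortening muscle lay above every low-shortening muscle. The difference was 2.06 (SE 0.24, 4.18-fold, adjusted p = 4.19e-05), and its second probe set rose by 1.59 (SE 0.17, adjusted p = 2.65e-05). Wtap, a subunit of the methyltransferase that writes the same mark, read 10.13, 10.58 and 10.17 against 10.72, 10.80 and 11.01, a difference of 0.55 (SE 0.18, adjusted p = 0.036). Its second probe set stood at 7.55, 7.48 and 7.55 against 9.68, 9.66 and 9.44, a difference of 2.07 (SE 0.22, adjusted p = 2.23e-05). The call of Wtap at its probe set of highest mean ended when any of 5 low-stretch arrays was left out (0.47 to 0.61, adjusted p 0.0511 to 0.12). It also ended with the Gapdh and Actb index (0.87, adjusted p = 0.244) or weight (0.45, adjusted p = 0.43) as a covariate, with the replicate block (adjusted p = 0.0523) and with values under the 40th percentile raised to it (adjusted p = 0.0802). With the bacterial RNA excess as a covariate, Ythdf2 stood at -0.02 and Wtap at -0.10, the signs of both being turned.

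The other rises of this set took in membrane, transport and DNA-binding proteins. Tram1, a component of the protein translocation site of the endoplasmic reticulum, rose by 0.75 (SE 0.15, adjusted p = 0.00223) and, at its second probe set, from 4.29, 3.83 and 3.81 to 6.92, 6.93 and 6.96 (2.96, or 2.03 with values under the 40th percentile raised to it). Aggf1, an angiogenic factor, rose by 1.11 and 2.25 at its 2 probe sets, from 8.49, 8.75 and 8.47 to 9.64, 9.83 and 9.59 at the first. The nuclear exportin Xpo4 rose by 1.52 and 1.28 at 2 probe sets and stood 0.12 higher at another that was not called. Nkrf, which represses NF-kB target genes, rose by 1.43 (SE 0.15, adjusted p = 1.81e-05) and 1.12 (SE 0.17, adjusted p = 0.000273). Its 6 low-stretch values were 7.14, 7.02 and 7.07 against 8.31, 8.81 and 8.39, with no overlap. The zinc finger genes Zfp422, Zfp317, Zfp451 and Zbtb6, which encode DNA-binding proteins, had median rises over their probe sets of 1.64, 1.57, 1.35 and 1.22. Mga, a partner of MAX, rose by 1.94 and 1.26 at 2 of 3 probe sets. For Mitf, a basic helix-loop-helix factor, the probe set of highest mean rose by 0.72 (SE 0.25, adjusted p = 0.0464) and the second by 1.77, and the first call ended in 10 of 12 fits that left out an array. With the Gapdh and Actb index as a covariate, 3 of the 12 (Nkrf, Aggf1 and Ythdf2) still passed at the probe set of highest mean, 11 kept a positive sign and Mitf stood at -0.65.

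The 12 agreeing genes with the largest falls reached larger sizes. Cxcl9, a chemokine induced by interferon gamma that draws T cells, read 10.20, 10.12 and 10.14 log2 in the low-shortening muscles and 8.26, 6.37 and 7.28 in the high-shortening muscles, and 8.77, 8.62 and 8.77 against 4.64, 3.66 and 4.05 at its second probe set. The groups were far apart at both, and the high-shortening muscles spread more widely than the low-shortening ones. Cxcl9 fell by 2.85 (SE 0.58, 7.20-fold, adjusted p = 0.00241) and by 4.61 (SE 0.23, adjusted p = 6.54e-08). At the second probe set the high-shortening levels lay under the 40th percentile, and with values under it raised to it the difference was -3.81. With labelled weight as a covariate, the first was no longer called (-3.29, adjusted p = 0.0515). Sparc, a collagen-binding matrix protein, stood at 10.59, 10.89 and 10.47 against 7.25, 7.71 and 7.42, a fall by 3.19 (SE 0.25, 9.11-fold, adjusted p = 1.75e-06), and its second probe set fell by 2.27. Vdac1, the main anion channel of the outer mitochondrial membrane, stood at 12.74, 12.88 and 12.87 against 10.49, 10.28 and 10.40, a fall by 2.44 (SE 0.11, 5.41-fold, adjusted p = 4.82e-08), and its second probe set fell by 3.00, to levels under the 40th percentile (-2.76 with values raised to it). Rhoa, a small GTPase that organises actin and stress signalling, read 10.80, 10.82 and 10.75 against 9.11, 9.20 and 8.99, a fall by 1.69 (SE 0.11, adjusted p = 5.66e-07), with 3.26 at the second. None of these genes had overlapping groups, which follows largely from their choice by this same difference.

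Enzymes of protein turnover and modification were also in that set. The ubiquitin-conjugating enzymes Ube2d1 and Ube2q2 had median falls over their probe sets of -2.83 and -2.26. Hars1, which charges the histidine tRNA, and Ost4, a subunit of the enzyme that attaches glycans to new proteins, had medians of -2.24 and -2.08. Acp1, a small phosphotyrosine phosphatase, fell by 0.75 (SE 0.16, adjusted p = 0.00287) at its probe set of highest mean and by 3.76 (SE 0.31, adjusted p = 3e-06) at the second, from 9.38, 9.10 and 9.39 to 5.81, 5.90 and 4.88. Tango2 and Tsc22d4 had medians of -2.31 and -1.99. In Cirbp, an RNA-binding protein induced by mild cold, the probe set of highest mean was not called (-0.36, SE 0.19, adjusted p = 0.172) and its groups overlapped, while the 2 others fell by 2.82 and 2.37. Of the 11 called at the probe set of highest mean, 10 still passed with the Gapdh and Actb index as a covariate, Acp1 being the exception (-1.06, adjusted p = 0.0977). With labelled weight as a covariate, 8 of 12 rises and 9 of 11 falls still passed there. Both covariates set the low stretch low shortening arrays apart from all others, so these passes do not tell them apart from shortening. One probe set each of Ube2d1, Cirbp, Tango2 and Hars1 fell to levels under the 40th percentile, and with values under it raised to it the differences were -1.73, -1.48, -1.71 and -1.96; the lower probe set of Zbtb6 lay under it in the low-shortening muscles and stood at 0.28 in place of 1.20. None of the 24 agreeing genes passed with the bacterial RNA excess as a covariate, under which 10 of 12 rises and 10 of 11 falls kept their sign.

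**Figure D3:**
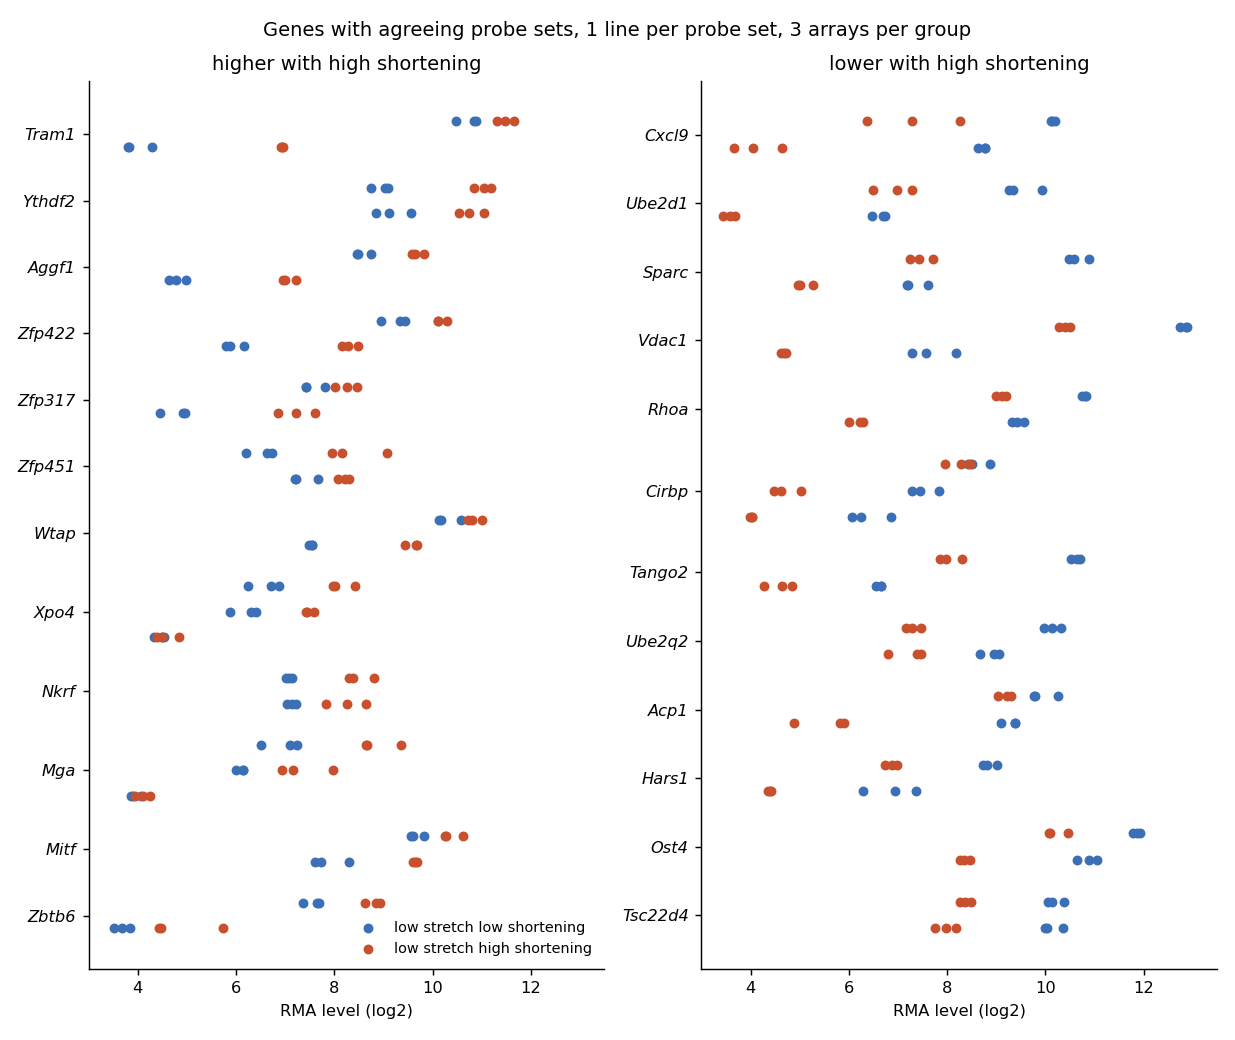
RMA levels (log2, horizontal axis) of the 12 agreeing genes with the largest rises (left) and falls (right), 1 line of points per probe set and 1 point per array, low stretch low shortening in blue and low stretch high shortening in red. The groups do not overlap at 48 of the 51 probe sets, the exceptions being 1 probe set each of Xpo4, Mga and Cirbp. These genes were chosen for this same difference, so the count follows largely from the choice. Over all probe sets the groups did not overlap at 46.9%.

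Among genes read by a single probe set, for which no agreement can be checked, the 5 largest falls included genes of lipid handling, respiration and actin. Fabp4, which binds fatty acids inside capillary cells and fat cells, read 9.33, 10.02 and 8.94 log2 with low shortening and 3.99, 3.53 and 4.27 with high shortening. It fell by 5.50 (SE 0.24, adjusted p = 3.33e-08). The high-shortening levels lay under the 40th percentile of the array, and with values under it raised to it the fall was -4.52. Atp5mg, a membrane subunit of ATP synthase, fell by 4.39 (SE 0.32, from 13.75, 13.61 and 13.64 to 9.19, 9.26 and 9.36), and Ndufb8, a subunit of respiratory complex I, by 4.14 (SE 0.19). Profilin 1 (Pfn1), which feeds actin monomers to growing filaments, fell by 3.89 (SE 0.17). Higd2a, which helps respiratory complexes assemble, fell by 3.84 (SE 0.11, adjusted p = 1.88e-09). The largest rises were those of Ube3al1 at 3.47 (SE 0.14), the kinase Nek1 at 3.31 (SE 0.11), the amino acid transporter subunit Slc3a1 at 2.82 (SE 0.29), Bod1l1 at 2.73 (SE 0.37) and Gpld1, a phospholipase that releases lipid-anchored proteins, at 2.61 (SE 0.17). Nek1 rose from 3.78, 3.71 and 3.99, under the 40th percentile, to 7.07, 7.14 and 7.19, and the rise was 2.22 with values under that percentile raised to it. The call of Bod1l1 ended with the Gapdh and Actb index as a covariate (0.97, adjusted p = 0.429).

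Genes of the respiratory chain fell more often than genes at large. Of 77 measured genes of complex I, complexes III and IV and ATP synthase, 54 were lower (70.1%, against 18.3% of all genes and 23.9% of those past the 40th percentile) and 4 were higher. In complex I, which takes electrons from NADH, 26 of 36 genes were lower and none was higher, with a median of -0.79 against 0.04 over all genes. Ndufa5 read 11.94, 11.85 and 11.85 against 8.73, 8.71 and 8.83, a fall by 3.12 (SE 0.09, adjusted p = 1.88e-09), and Ndufb10 fell by 2.32 (SE 0.12) and Ndufab1 by 1.31 (SE 0.09). In complexes III and IV, which pass electrons to oxygen, 16 of 25 were lower and 3 higher (median -0.51), with Uqcr11 at -1.51, Cox8a at -1.65, Uqcrfs1 at -1.20 and Cox5b at -1.09. In ATP synthase 12 of 16 were lower and 1 higher (median -0.87), with Atp5pf at -1.96 (12.97, 12.82 and 12.98 against 11.00, 10.96 and 10.93), Atp5mk at -1.14 and its inhibitor Atp5if1 at -1.99. With the Gapdh and Actb index as a covariate, 18 genes of complex I were lower, 6 of complexes III and IV and 8 of ATP synthase, and none was higher. Of these 77 genes, 7 had several probe sets. Where a second existed it could disagree: Uqcrc2, a core subunit of complex III named after its values were seen, rose by 0.31 at one probe set (12.93, 12.73 and 12.85 against 13.20, 13.16 and 13.07) and fell by 4.04 at the other (11.86, 11.13 and 11.76 against 7.69, 7.30 and 7.64).

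Promoters of 4 genes named in these results are shown: 3 that fell (Ndufa5, Atp5mg and Ccn1, the last a secreted matrix signal described below) and 1 that rose at both probe sets (Ythdf2). The window of Cxcl9, which also fell, was searched too, held none of the 6 motifs given below and is not printed. Only the exact letters given below were counted. The shorter run GGGATTTCC in the Cxcl9 window does not match the NF-kB letters GGGNNTTTCC. The sequences are those of RefSeq for the rat assembly GRCr8, 250 bases before to 50 after the annotated start, read 5′ to 3′ on the gene's strand, with motif matches in capitals. The windows are chr4:53971186-53971485 on the minus strand for Ndufa5, chr8:54130358-54130657 on the minus strand for Atp5mg, chr2:237225640-237225939 on the minus strand for Ccn1 and chr5:149690009-149690308 on the minus strand for Ythdf2.
Ndufa5: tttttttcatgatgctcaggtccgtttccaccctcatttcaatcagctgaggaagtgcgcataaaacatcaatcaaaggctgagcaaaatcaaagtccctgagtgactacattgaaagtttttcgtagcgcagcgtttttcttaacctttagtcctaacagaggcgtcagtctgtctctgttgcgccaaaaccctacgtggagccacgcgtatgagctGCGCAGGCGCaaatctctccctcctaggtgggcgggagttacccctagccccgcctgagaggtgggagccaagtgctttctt
Atp5mg: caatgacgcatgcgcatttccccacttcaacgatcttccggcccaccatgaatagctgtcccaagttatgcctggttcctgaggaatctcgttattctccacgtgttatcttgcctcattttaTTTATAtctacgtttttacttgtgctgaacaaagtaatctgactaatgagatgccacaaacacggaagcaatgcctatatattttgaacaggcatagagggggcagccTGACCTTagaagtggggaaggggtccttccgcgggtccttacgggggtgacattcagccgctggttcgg
Ccn1: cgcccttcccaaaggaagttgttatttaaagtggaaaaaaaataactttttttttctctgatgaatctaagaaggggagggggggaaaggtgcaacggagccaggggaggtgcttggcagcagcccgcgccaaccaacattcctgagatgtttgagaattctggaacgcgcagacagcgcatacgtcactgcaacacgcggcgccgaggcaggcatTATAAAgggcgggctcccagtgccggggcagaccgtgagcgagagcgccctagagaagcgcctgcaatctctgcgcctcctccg
Ythdf2: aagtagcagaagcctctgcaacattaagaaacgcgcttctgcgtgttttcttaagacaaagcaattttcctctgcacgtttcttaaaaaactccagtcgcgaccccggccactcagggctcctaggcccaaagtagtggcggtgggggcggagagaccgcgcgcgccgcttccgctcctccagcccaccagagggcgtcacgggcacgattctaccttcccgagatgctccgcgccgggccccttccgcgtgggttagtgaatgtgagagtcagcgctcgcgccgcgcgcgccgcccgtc
Both strands were searched for AP-1 (TGANTCA, in 7.33% of all 27457 promoters of this length), NF-kB (GGGNNTTTCC, 1.51%), a heat shock element (GAANNTTC, 8.34%), NRF1 (GCGCANGCGC, 4.71%), an ERR half-site (AAGGTCA, 4.37%) and a TATA box (TATAAA, 14.3%). The capitals mark NRF1 letters starting 32 bases before the start of Ndufa5, the reverse complements of the TATA box (127 bases before) and of the ERR half-site (19 bases before) in Atp5mg, and a TATA box 34 bases before the start of Ccn1; none of these matches overlap, and none of the 6 motifs was in the window of Ythdf2. NRF1 and ERR are families of factors known to drive mitochondrial genes. NRF1 letters were in 12 of the 68 respiratory chain and ATP synthase promoters found in the table (17.6%), in 8 of the 49 whose gene was lower (16.3%). The ERR half-site was in 10 of the 68 (14.7%) and in 8 of the 49 (16.3%). The 49 are most of the 68, so these shares must lie close. They cannot tell whether genes that fell differ from genes that did not.

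Falls were also frequent among other genes of energy metabolism, beside 18.3% of all genes lower and 17.9% higher. In the mitochondrial ribosome, which translates the mitochondrial genome, 41 of 73 genes were lower and 14 higher (median -0.47), with Mrpl54 at -1.84 (SE 0.09) and Mrpl52 at -1.92 (SE 0.11). Of 21 genes of the citric acid cycle and of pyruvate entry, 14 were lower and none higher (median -0.49). Cs, citrate synthase, fell by 0.97 (SE 0.08, adjusted p = 3.87e-06, from 13.13, 13.13 and 13.20 to 12.22, 12.16 and 12.16) and the pyruvate carrier Mpc1 by 1.49 (SE 0.12). Of 21 genes of fatty acid oxidation, 16 were lower and 1 higher (median -0.77). Cd36, a fatty acid transporter of the cell surface, read 11.49, 11.10 and 11.63 against 8.08, 7.95 and 8.02, a fall by 3.39 (SE 0.20, adjusted p = 1.86e-07), and Hadha, which carries out later steps of the oxidation, fell by 1.28 (SE 0.10). In glycolysis 12 of 20 were lower and 1 higher (median -0.61), with Gpi at -1.38, Tpi1 at -1.53, Pgam2 at -1.77 and Pfkl at -1.23. Among antioxidant enzymes and NRF2 targets 12 of 22 were lower and none higher (median -0.74), with Gpx4 at -2.16 (SE 0.11) and mitochondrial Sod2 at -1.43 (SE 0.13).

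Machinery that makes, folds and degrades proteins also fell often, beside 18.3% of all genes lower and 17.9% higher. Of 44 genes of the cytosolic ribosome, 23 were lower and 5 higher (median -0.34). Rps24 fell by 3.35 (SE 0.18, from 12.76, 13.06 and 12.98 to 9.38, 9.67 and 9.70) at its probe set of highest mean and stood 0.26 higher at a second that was not called. Of 37 proteasome genes 22 were lower and 5 higher (median -0.69), with Psmd6 at -1.75 (SE 0.12) and Psma5 at -1.28 (SE 0.09). With the Gapdh and Actb index as a covariate, 2 cytosolic ribosome genes and 10 proteasome genes were lower and none was higher. Of 26 heat shock and folding genes 10 were lower and 3 higher (median -0.25). Hsp90ab1, a constitutive chaperone, stood at 13.22, 13.13 and 13.35 against 10.53, 10.61 and 10.39, a fall by 2.72 (SE 0.11), whereas its second probe set was not called (-0.33, adjusted p = 0.259). Both probe sets of Hspb7, a small heat shock protein of heart, fell, by 2.53 (SE 0.15) and 1.34 (SE 0.13). In the unfolded protein and amino acid response 9 of 20 were lower and 6 higher (median -0.24), with the factors Atf4 at -1.13 and Atf5 at -1.42 and the chaperone Hsp90b1 at -1.76.

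The contractile apparatus, cytoplasmic actin and calcium handling gave the following counts, beside 18.3% of all genes lower and 17.9% higher. In the thick filament and titin list 4 of 12 genes were lower and 1 higher (median -0.38). The light chains Myl2 and Myl3 fell by 0.81 (SE 0.09, from 14.22, 14.15 and 14.16 to 13.33, 13.32 and 13.47) and 0.78 (SE 0.09), Ttn by 0.39 (SE 0.11) and Myom1 of the M-band by 1.60 (SE 0.13). In the thin filament 3 of 11 were lower and none higher (median -0.24), with troponin I (Tnni3) at -0.93 and troponin C (Tnnc1) at -0.68. In the Z-disc and intermediate filament list 6 of 15 were lower and 2 higher, with desmin (Des) at -1.80 (SE 0.21). In the turnover of cytoplasmic actin 10 of 15 genes were lower and 2 higher (median -0.56), with Tmsb4x, which holds actin monomers, at -2.88 (SE 0.16, from 12.53, 12.93 and 12.69 to 9.79, 10.05 and 9.68) and the filament-severing Gsn at -2.04. All 3 probe sets of Cap2, an actin monomer recycling protein, fell, by 1.33, 1.72 and 0.75. Of 19 genes of calcium release, reuptake and exchange 6 were lower and none higher (median -0.02), with Jph2, which holds the surface and store membranes together, at -1.82 (SE 0.17) and S100a1 at -1.49 (SE 0.12). Of 18 ion channel and connexin genes 1 was lower and 2 higher, led by connexin 45 (Gjc1) at 1.51 (SE 0.11, from 8.25, 8.01 and 7.93 to 9.56, 9.56 and 9.60).

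Genes known to follow mechanical load were looked at whatever their values. The natriuretic peptide Nppb fell by 1.00 (SE 0.23, adjusted p = 0.00578, 13.53, 13.34 and 13.55 against 12.89, 12.28 and 12.26). The call of Nppb ended with the Gapdh and Actb index (-1.24, adjusted p = 0.201) or weight (-0.99, adjusted p = 0.145) as a covariate. Nppa stood at 6.72, 6.22 and 6.31 against 6.72, 6.65 and 6.56 (0.23, adjusted p = 0.196; 0.38, adjusted p = 0.0164 without low-shortening replicate 1). Skeletal alpha-actin, Acta1, fell by 0.92 (SE 0.30, adjusted p = 0.0363), and this call ended when any of 5 low-stretch arrays was left out (-0.71 to -0.95, adjusted p 0.0703 to 0.14). The myosin heavy chains gave different answers at their 2 probe sets. Myh6 stood at 13.95, 14.03 and 13.98 against 13.99, 13.96 and 13.95 at the first (-0.02, adjusted p = 0.888) and at 10.76, 9.63 and 10.71 against 7.61, 7.34 and 7.52 at the second, a fall by 2.88 (adjusted p = 4.5e-06). Myh7 stood 0.44 lower at the first (adjusted p = 0.487) and fell by 2.70 at the second (adjusted p = 0.00353). Ankrd1, a stretch-responsive repeat protein of the sarcomere, was at -0.12 (adjusted p = 0.295) and -0.66 (adjusted p = 0.000647). In the list of fetal and load genes 3 of 13 were lower (23.1%, against 18.3% of all genes) and 1 higher. Rcan1, an inhibitor and target of calcineurin, went from 13.41, 13.32 and 13.32 to 11.94, 11.90 and 11.73 (adjusted p = 4.95e-07).

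Secreted and immediate early signals also split, as all genes did (18.3% lower and 17.9% higher). Ccn1, a matrix signal of the YAP and SRF pathways whose promoter is printed above, read 11.60, 11.35 and 11.01 against 8.41, 7.97 and 8.28, a fall by 3.10 (SE 0.31, 8.59-fold, adjusted p = 1.37e-05). Its relative Ccn2 did not pass (-0.48, SE 0.79, adjusted p = 0.698), with groups that overlapped. In the YAP, SRF and CCN list 2 of 16 genes were lower and 3 higher. Among 22 immediate early genes 6 were lower and 3 higher. Of the 9 with several probe sets, 2 agreed on a higher level and 1 on a lower level. Fos (0.06, adjusted p = 0.909), Egr1 (0.09, adjusted p = 0.813) and Atf3 (-0.63, adjusted p = 0.116) did not pass at their probe sets of highest mean, and Atf3 passed when only the 6 low-stretch arrays were fitted (adjusted p = 0.0328). Junb, a partner of Fos, fell by 1.82 (SE 0.18), Ier3 by 2.43 (SE 0.26, from 12.99, 12.34 and 12.84 to 10.31, 10.08 and 10.49) and Maff by 2.06 (SE 0.17). Il6 (0.65, adjusted p = 0.277), Pdk4 (-0.41, adjusted p = 0.189), Ppargc1a (0.35, adjusted p = 0.533) and Slc2a1 (0.00, adjusted p = 0.994) did not pass at their probe sets of highest mean. The second probe sets of Fos (0.68, adjusted p = 0.00265) and Pdk4 (0.39, adjusted p = 0.0496) passed as higher, that of Fos at levels under the 40th percentile. Hspa1b had no probe set with 1 symbol. Of 12 dual-specificity phosphatases and other feedback genes, 1 was higher and none lower: Errfi1, an inhibitor of the EGF receptor, at 1.35 (SE 0.17).

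Inflammatory, vascular and matrix genes were counted next, beside 18.3% of all genes lower and 17.9% higher. Of 39 cytokines and chemokines 18 were lower and 3 higher (median -0.62). Mif, the macrophage migration inhibitory factor, stood at 11.20, 11.08 and 11.11 against 7.41, 7.35 and 7.63, a fall by 3.67 (SE 0.11, adjusted p = 1.88e-09). Ccl7, which draws monocytes, fell by 2.43 (SE 0.16), the neutrophil chemokine Cxcl6 by 3.60 (SE 0.25) and the adhesion receptor Icam1 by 1.88 (SE 0.17). With the Gapdh and Actb index as a covariate, 7 of these 39 genes were lower and 1 higher. Of 25 interferon and antigen presentation genes 11 were lower and none higher (median -0.56), with Cd74 at -1.54 and the immunoproteasome subunit Psmb9 at -2.19. Among 24 angiogenic and hypoxia signals 8 were lower and 4 higher. The median of this list was -0.03 and its highest difference 1.98. The vasodilator Adm fell by 2.98 (SE 0.20, from 10.62, 10.53 and 10.24 to 7.39, 7.60 and 7.47) and Vegfa by 1.40 (SE 0.17). A second probe set of Vegfa was not called (-0.37, adjusted p = 0.0983). Of 22 genes of fibrillar collagens and crosslinking 4 were lower (18.2%, near the 18.3% of all genes) and 1 higher, with Col3a1 at -2.60 (SE 0.41) and Col1a2 at -2.29 (SE 0.28), and the median was 0.03. The second probe set of Col1a2 was not called (-0.45, adjusted p = 0.234), and its groups overlapped. In the basement membrane 6 of 15 were lower and 1 higher: Nid1 fell by 2.11 (SE 0.14), and Lama4, a laminin chain of vessels and muscle, rose by 1.22 (SE 0.15). Regulators of the TGF-beta and BMP pathway split, with 7 of 25 lower and 6 higher; Id3, an inhibitor of helix-loop-helix factors, fell by 3.00 (SE 0.15).

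Among chromatin regulators and receptor signalling genes, rises were about as frequent as falls, as they were over all genes (17.9% higher and 18.3% lower). Of 35 chromatin regulators 11 were higher and 8 lower (median -0.01). The histone chaperone Hira read 3.63, 3.82 and 3.34 with low shortening and 7.37, 7.94 and 7.97 with high shortening, a rise by 4.17 (SE 0.19, adjusted p = 4.82e-08) from levels under the 40th percentile, and its second probe set was not called (0.11). Ankrd11, a chromatin cofactor, rose by 3.00 (SE 0.18) and 0.44 at 2 of 3 probe sets. Smarca4, an ATPase of chromatin remodelling, fell by 1.52 (SE 0.13) and 1.55 (SE 0.19) at 2 of 3. Of 92 splicing factors and hnRNPs 31 were lower and 22 higher (median -0.02), with Sf3b5 at -2.49 and Snrpd2 at -1.85. In the adrenergic, angiotensin and endothelin list 7 of 25 were higher and 6 lower. Gnb1, a G protein beta subunit, rose by 2.74 at one probe set (9.32, 9.00 and 9.52 against 11.99, 12.04 and 12.02) and fell by 1.33 at another (10.00, 10.03 and 9.99 against 8.53, 8.68 and 8.83). Such opposite calls also occurred in Id2 (1.39 and -3.20), in Tef of the clock (-1.38 and 1.67) and in Tpm3, a tropomyosin for which 4 of 12 probe sets were called higher and 5 lower. Among cardiac transcription factors 6 of 22 were lower and 4 higher, with Nkx2-5 at -1.72 (SE 0.14).

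Smaller counts came from the remaining lists, to be read against 18.3% of all genes lower and 17.9% higher. In the costamere and focal adhesion list 7 of 18 genes were lower and 2 higher, with the fibronectin receptor chain Itga5 at -1.26 (SE 0.18). Among matrix proteases and their inhibitors 4 of 17 were lower and 3 higher, with tissue plasminogen activator (Plat) at -1.41 (SE 0.22) and Timp2 at -0.72 (SE 0.12). In the list of atrophy ligases and autophagy 8 of 21 were lower and 1 higher; the autophagosome protein Map1lc3a read 11.73, 11.82 and 11.63 against 10.00, 9.90 and 10.10, a fall by 1.73 (SE 0.10), and the lysosomal protease Ctsd fell by 1.31 (SE 0.11). Among apoptosis regulators 5 of 22 were lower and 5 higher, with the stress gene Gadd45a at -2.17 (SE 0.21). In the circadian clock 4 of 17 were lower and 2 higher, and Clock itself rose by 0.88 (SE 0.10) at its probe set of highest mean, with a second at 0.48 that was not called.

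**Figure D4:**
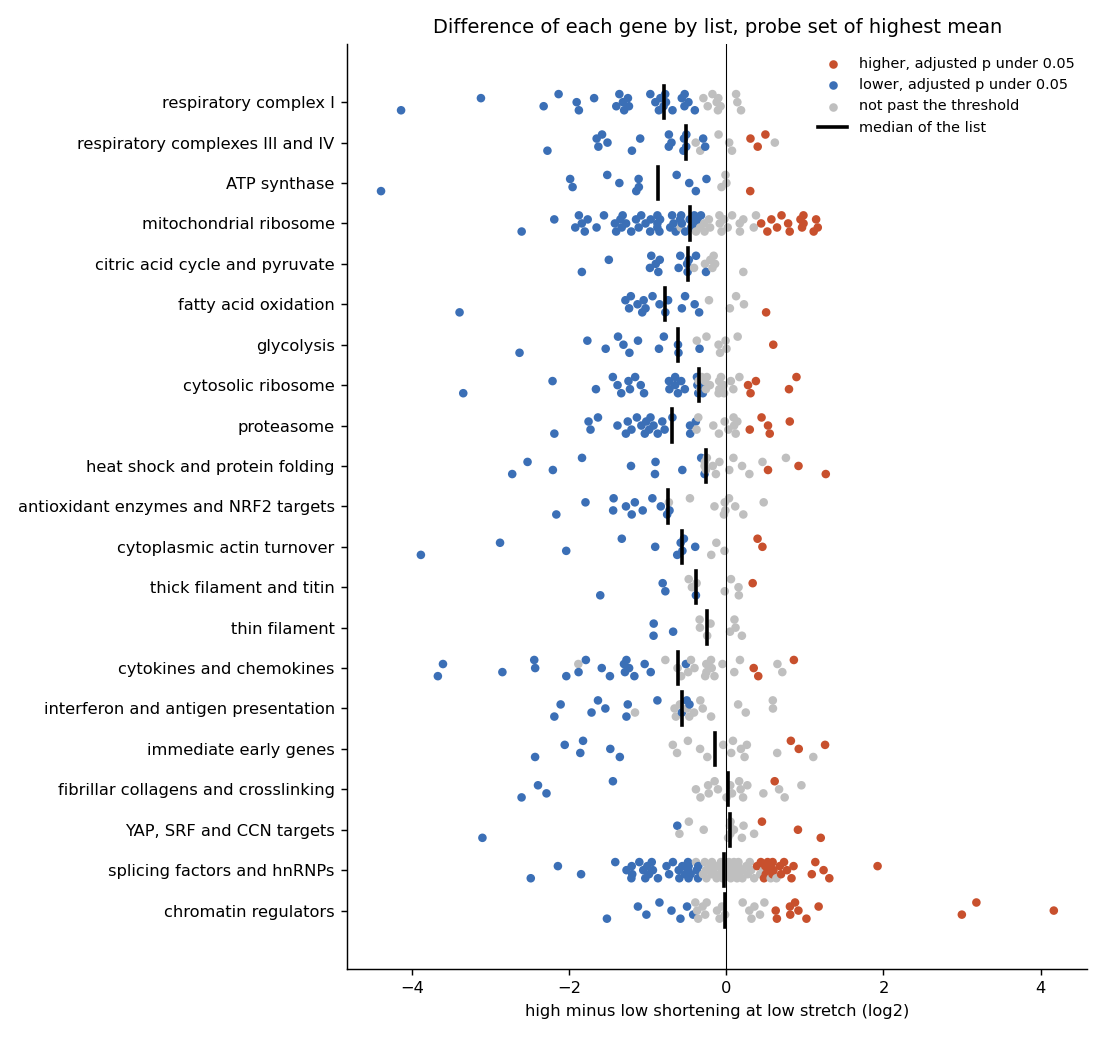
Difference between high and low shortening at low stretch (log2, horizontal axis) of each measured gene, at its probe set of highest mean, in 21 gene lists; red and blue points passed as higher or lower, grey points did not, and the black bar is the list's median. The energy, ribosome and proteasome lists lie left of 0 with medians from -0.34 to -0.87, while chromatin and splicing lists are centred near 0 with points on both sides.

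Over the 37 pathway lists, medians ran from -0.87 to 0.15, and the share of lower genes was above that of all genes (18.3%) in 33, the share of higher genes above that of all genes (17.9%) in 9. For genes past the 40th percentile the shares were 23.9% and 22.5%. Under 23.9% lower were fetal and load genes (23.1%), matrix proteases (23.5%), circadian clock (23.5%), apoptosis (22.7%) and chromatin regulators (22.9%). Under 22.5% higher were the mitochondrial ribosome (19.2%), YAP, SRF and CCN targets (18.8%) and cardiac transcription factors (18.2%). Probe sets with 1 symbol were called higher in 15.5% and lower in 19.8% of cases, whereas probe sets with no symbol or several were called higher in 16.3% and lower in 8.61%. Past the 40th percentile, 27.2% of the latter were higher and 14.5% lower.

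Markers of the cell types that a papillary muscle can hold were read as well. The summed level of 14 cardiomyocyte markers, such as Tnni3 and Myl2, was 17.47 to 17.52 log2 with low shortening and 17.11 to 17.19 with high shortening; 7 of the 14 were lower and none higher. Fibroblast markers summed to 14.09 to 14.22 against 13.53 to 13.78 (4 of 12 lower, none higher), and smooth muscle and pericyte markers to 12.98 to 13.05 against 11.65 to 12.00 (4 of 12 lower, none higher). Endothelial markers were at 11.97 to 12.61 against 11.67 to 11.97, touching at 11.97, with 6 of 14 lower and 2 higher. Macrophage and monocyte sums overlapped (11.22 to 11.64 against 11.26 to 11.47), although 4 of 14 markers were lower, among them Tyrobp at -1.67 and C1qb at -1.15. None was called higher, and the list's median was -0.25. Mrc1 (0.65, adjusted p = 0.144) and Cd68 (0.47, adjusted p = 0.11) stood higher without a call. Lymphocyte sums also overlapped, with 1 of 10 markers higher and 1 lower. The share called lower was 12.5% among mast cell markers (1 of 8), beside 18.3% of all genes. It was 18.2% among nerve and Schwann cell markers (2 of 11) and among skeletal muscle markers (2 of 11, with 1 higher). No erythroid marker was called (none of 3). Mean levels were past 4.91 log2 in only 1 of the 8 mast cell and 4 of the 11 skeletal muscle markers. They were past it in 7 of the 11 nerve and Schwann cell and 2 of the 3 erythroid markers. Over all probe sets, the fifth with the lowest means was called least often (2.75% lower, 3.24% higher). Of neutrophil markers only Lcn2, which muscle and epithelium can also make, was called (-2.09); S100a8, Csf3r and Cxcr2 stayed between 3.04 and 3.97 log2 on all 6 arrays. Adipocyte sums were 9.51 to 10.40 against 8.13 to 8.35, with Fabp4 called lower, Pparg, a regulator of fat cell genes, called higher (0.53, SE 0.16, adjusted p = 0.0256) and Adipoq at 4.17 to 4.67 throughout. Mesothelial sums were higher with high shortening (8.78 to 9.24 against 7.90 to 8.01) with Lrrn4 the single marker called, at 1 of its 3 probe sets (1.88, SE 0.22), while Msln and Krt19 stayed under 4.91. The part of these shifts in the gene lists was not tested, and in such bulk samples fewer cells of a type and less RNA per cell cannot be told apart.

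Finally, the difference was set against the same contrast at high stretch and against the high-stretch groups. At 16% mean stretch, high minus low shortening gave 0 called probe sets in limma (1463 at an unadjusted p under 0.05), where the array controls of both groups showed a high 3' excess (5.06 ± 0.35 for dap, lys and phe with high shortening and 5.41 with low shortening). The difference between the contrasts was called at 6323 probe sets (20.4%). For the 49 named genes the contrast at high stretch lay between -0.89 and 0.67, with no adjusted p under 0.989. The low stretch high shortening muscles also differed from neither high-stretch group at any probe set in limma (1432 and 1815 at an unadjusted p under 0.05). Cxcl9, for example, averaged 10.15 ± 0.04 log2 with low stretch and low shortening, 7.31 with low stretch and high shortening and 6.91 with high stretch and high shortening (n = 3 each). The high stretch high shortening and high stretch low shortening groups differed from the low stretch low shortening group at 10608 and 10528 probe sets. These comparisons share groups and are given side by side; each one with calls holds the 3 low stretch low shortening arrays.

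**Figure D5:**
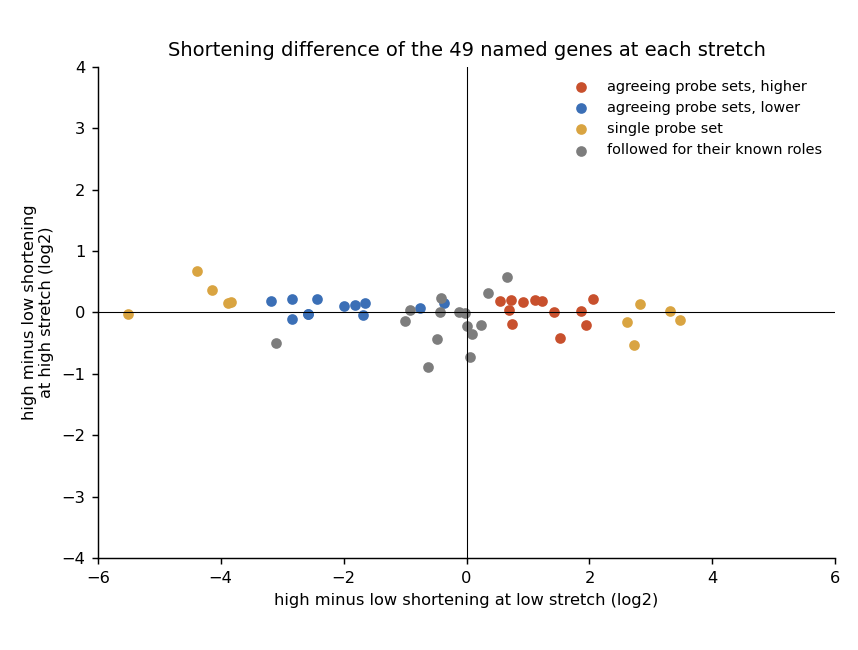
High minus low shortening (log2) at low stretch (horizontal axis) and at high stretch (vertical axis) for 49 named genes, 1 point per gene at its probe set of highest mean, coloured by how the gene was named. The points spread from -5.50 to 3.47 along the horizontal axis and from -0.89 to 0.67 along the vertical axis. The agreeing genes and the genes with 1 probe set were named for large differences along the horizontal axis.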

How the data were processed

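The value table holds log2 intensities of 31099 probe sets on 12 arrays, deposited after the authors' RMA normalization (per the submitters' processing notes), whose version is not given in the sources used here. Its 57 control probe sets were kept out of the tests. A deposited filtered table of 16391 probe sets holds identical log2 values, and its header names an intensity of 50 as a filter. Gene symbols came from the platform's probe table. Limma (version 3.58.1, R 4.3.3) estimated 1 mean for each of the 4 groups from all 12 arrays, followed by eBayes and Benjamini-Hochberg adjustment over 31042 probe sets at a threshold of 0.05. A gene was read at the probe set of highest mean over the 12 arrays. Control differences were tested by exact permutation.

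On simulated data of 31042 probe sets, this comparison recovered 20.9% of 1.41-fold, 79.1% of 2-fold and 95.5% of 4-fold changes, with 4 calls among unchanged probe sets. Only 67, 67 and 66 probe sets were changed by these sizes, whereas 31.9% were called in the data. The noise was independent between probe sets, and no difference in labelled RNA was simulated. These rates therefore need not hold for the data. Residuals of same-numbered low-stretch muscles correlated by 0.05 to 0.09, so the muscles were treated as unpaired. The comparison, gene lists, followed genes and tests were chosen with earlier results of these data known. Named genes were the 12 largest rises and 12 largest falls among agreeing genes past the 40th percentile in a group (by the median over probe sets), the 5 and 5 largest among genes with 1 probe set, 15 followed genes with a probe set, and at most 4 genes per list, those with the smallest adjusted p; further examples of opposite probe sets were chosen after their values were seen. Alternatives were filters, normalizations, priors, weights, blocks, covariates, thresholds and leaving out each array; the bacterial RNA covariate was added after the data were seen. Promoter sequences came from RefSeq (GRCr8) and figures from matplotlib 3.10.9.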

Additional observations from a re-analysis of the deposited data

Results flagged for a closer look

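The difference between high and low shortening changed with the level of stretch at 6323 probe sets in limma's interaction test (adjusted p under 0.05; 3452 with a higher and 2871 with a lower value at high stretch), and at the probe set of highest mean of 31 of the 49 named genes (adjusted p from 6.74e-08 to 0.0205). The agreeing genes and the genes with 1 probe set were named for large differences at low stretch. That contrast is part of the interaction, so their calls and values largely restate the choice and give no separate support. Values below subtract the low-stretch contrast from the high-stretch contrast, in log2. Among agreeing genes lower with high shortening at low stretch, they were 3.06 for Cxcl9, 2.56 for Ube2d1, 3.37 for Sparc, 2.65 for Vdac1, 1.64 for Rhoa, 2.56 for Tango2, 2.73 for Ube2q2, 0.82 for Acp1, 2.11 for Hars1, 1.80 for Ost4 and 1.95 for Tsc22d4. Among agreeing genes higher at low stretch, they were -0.93 for Tram1, -1.85 for Ythdf2, -0.91 for Aggf1, -0.75 for Zfp422, -1.84 for Zfp451, -1.94 for Xpo4, -1.42 for Nkrf, -2.14 for Mga and -1.05 for Zbtb6. Genes with 1 probe set gave 5.48 for Fabp4, 5.06 for Atp5mg, 4.50 for Ndufb8, 4.03 for Pfn1 and 4.01 for Higd2a, and -3.59 for Ube3al1, -3.28 for Nek1, -2.69 for Slc3a1, -3.25 for Bod1l1 and -2.77 for Gpld1. Of the followed genes, Ccn1 gave 2.61. Every one of these contrasts includes the 3 low stretch low shortening arrays, whose control RNAs differed from those of the other 9 arrays, and the part of that difference in the interaction was not tested apart from the covariates given below.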

How the results depend on the processing

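Counts are given in the order probe sets, genes, agreeing genes and interaction; they were 9887, 5151, 423 and 6323. With the Gapdh and Actb index as a covariate they were 3239, 1753, 108 and 1042, and with labelled weight 4659, 2452, 151 and 2150. With the bacterial RNA excess, added after the data were seen, they were 0, 0, 0 and 0 in limma, with 2681 probe sets at an unadjusted p under 0.05; the covariate separates the low stretch low shortening arrays from all others, and the median standard error was 0.947 log2 against 0.138. The Gapdh and Actb index and labelled weight also separate the low stretch low shortening arrays from all others, with median standard errors of 0.311 and 0.234 log2. A minimum of 1.5-fold left 259 agreeing genes. Leaving out each array in turn gave 8394 to 10314 probe sets, 4385 to 5344 genes, 325 to 452 agreeing genes and 5427 to 6147 for the interaction, and an index difference of 1.73 to 2.01. The replicate block, run although the numbers do not pair the muscles, gave 9708, 5059, 393 and 6085. Under the other alternatives these counts stayed within 1.5 times of those given first. Centring arrays on their medians moved the share of higher calls among agreeing genes from 35.0% to 29.4%.

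Of 1421 values of named genes under alternatives, 1290 kept direction and call, 84 lost and 8 gained the call and 39 changed sign; the cause was not tested. With the index as a covariate the changed signs were Ppargc1a -1.58, Egr1 -0.14, Fos -0.99, Ccn2 0.33, Mitf -0.65 and Myh7 2.12 (adjusted p = 0.0399). With weight they were Slc2a1 -0.65, Ppargc1a -0.40, Pdk4 0.05, Il6 -0.45, Egr1 -0.70, Fos -0.45 and Ccn2 0.28, and with age Fos -0.06. With the bacterial RNA excess they were Acp1 0.70, Ankrd1 0.43, Atf3 0.55, Ccn2 4.90, Egr1 -0.15, Il6 -0.84, Myh6 0.46, Pdk4 1.15, Slc2a1 -2.15, Wtap -0.10 and Ythdf2 -0.02. A repeated quantile normalization gave Ankrd1 0.12 and Myh6 0.17, array weights gave Slc2a1 -0.06 and median centring Slc2a1 -0.02. Leaving out single arrays gave Ccn2 -0.77 to 0.08, Egr1 -0.12 to 0.27, Fos -0.29 to 0.31, Myh6 -0.04 to 0.00 and Slc2a1 -0.22 to 0.22. Apart from Myh7 with the index, none of these passed after the change of sign. Of 1450 list counts, 197 moved by over 1.5 times.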
